A study of Drosophila melanogaster with 9 samples.

Results

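The steady-state RNA of ovaries from young females was described from the 3 input libraries of an RNA immunoprecipitation study in Drosophila melanogaster. They are 3 of 9 libraries, chosen by their label alone, and no values were used to choose them. Ovaries came from females with the labelled genotype larp::GFP::FLAG, dissected 1 to 3 days after eclosion. Larp is the La-related protein, an RNA-binding protein that carries GFP and a FLAG tag in these flies. All 9 libraries share this genotype, so no untagged ovary was measured. The input libraries hold RNA of 10% of the lysate, taken without immunoprecipitation. The other 6 libraries, 3 with control IgG and 3 with anti-FLAG antibody, were used only to see whether a pattern of the input libraries recurred in them. The input libraries form a single group, so no test between groups was made. Nothing in the labels says whether the replicates came from separate animals, and the spread among them may be in part technical.

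A fly ovary is a set of strings of egg chambers of increasing age. Each chamber holds a germline cyst, in which nurse cells make RNA and protein for the oocyte through cytoplasmic bridges called ring canals, and a surrounding epithelium of somatic follicle cells. Much of the RNA that the nurse cells make is stored in the egg and used after fertilization, before the zygote transcribes its own genome. Follicle cells secrete part of the yolk, then the vitelline membrane, which is the inner eggshell layer, and last the chorion, the outer layer. Stem cells of the germline and their somatic niche sit at the tip of each string, in the germarium, and make up little of the tissue.

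The input libraries held between 12468164 and 13000076 counts. At this depth a floor of 3 counts lay between 0.231 and 0.241 CPM (counts after bringing each library to an equal sum). Of 17024 features, 7080 or 41.6% had at least 10 counts in all 3 libraries and are called detected here. They held at least 99.8% of the counts of each library. A further 7715 features had no count in any of the 3 libraries, and 2229 lay in between. Low counts were uneven. Of the features at 0 in some but not all libraries, which numbered 1919, 1305 had at least 10 counts in another input library, so a single library is weak evidence that a gene of low level is present or absent. Replicate 3 stood apart from the others. Pearson's r of log2(CPM + 1) across detected features, which are not independent replicates, was 0.975 for replicates 1 and 2 and 0.949 and 0.953 for the pairs with replicate 3. The chi-square per degree of freedom was at least 31.9 in each pair, so no library was a copy of another. Values are therefore given per library.

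The most abundant transcripts of the ovary came from mitochondria, the translation machinery, chaperones, the eggshell and stores of maternal mRNA. The large mitochondrial ribosomal RNA, mt:lrRNA (mitochondrial genome, 12735 to 14058, minus strand), led with 24078, 34094 and 35546 CPM in replicates 1 to 3, a mean of 31239 ± 6244 (SD, n = 3). It stayed in libraries selected for poly(A) tails, as did the mRNAs of cytochrome c oxidase subunits mt:CoI and mt:CoIII, and the 37 features of the mitochondrial genome took 4.42% ± 0.87 of the counts. Their share was lowest in replicate 1, at 3.43%, against 4.73% and 5.09%. A feature with no symbol in the tables used here, FBgn0000556, was next with 14764, 17116 and 20378 CPM.

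Among the nuclear mRNAs with a symbol, the translation elongation factor eEF2 (chromosome 2L, 21677913 to 21682164) had 5551, 5176 and 6701 CPM. Next came Hsc70-4, the constitutive cytosolic Hsp70 chaperone, with 5346, 5308 and 6226 CPM, and further down the Hsp90 chaperone Hsp83 with 4129, 3921 and 5028 CPM. Replicate 3 was the highest library for these 3 genes. Transcripts of me31B, a DEAD-box helicase that keeps maternal mRNA repressed, and of its partner tral varied little among the libraries. The helicase had 3853, 3950 and 3909 CPM and tral had 3757, 3833 and 3924 CPM. The cytoplasmic actin Act5C had 3747, 3843 and 3764 CPM. Of the 20 most abundant features, 7 coded for eggshell or yolk proteins (Cp38, Vm34Ca, Cp36, Yp2, Vm26Aa, dec and Cp15) and 1 for a ribosomal protein, RpS3A. Ribosomal protein genes filled the ranks below, with 30 of the 100 most abundant features and 9.18% ± 1.22 of the counts.

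**Figure D1:**
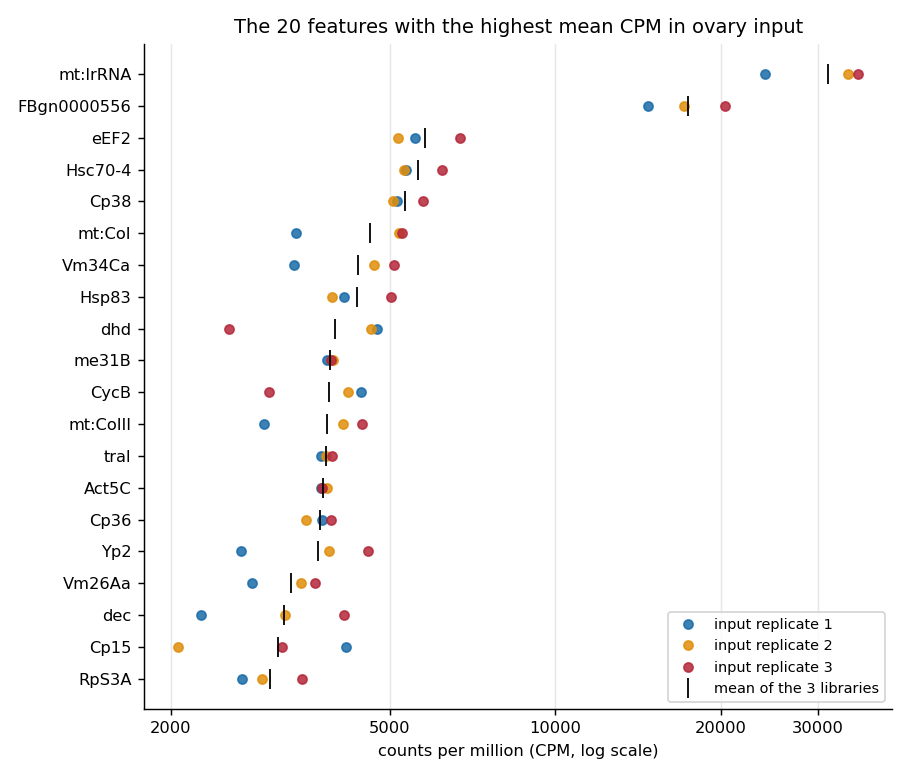
The 20 features with the highest mean CPM in the input libraries, with the CPM of each library as a point and the mean as a black bar on a log axis. mt:lrRNA and FBgn0000556 lie far to the right, me31B, tral and Act5C have almost no spread, and dhd and CycB are the ones in which replicate 3 lies farthest to the left of the other libraries.

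A small number of genes held much of the RNA. The 10 most abundant features took 7.44%, 8.91% and 9.64% of the counts in replicates 1 to 3, the first 100 took 26.1% ± 2.37, and 514 features held 50% of all counts. Levels of different genes were compared per length, in TPM (counts per base of annotated exon, scaled to a common sum). The median TPM of the 6907 detected genes with a known length was 49.9. The middle of the distribution was narrow, from 23.2 at the 25th percentile to 97.8 at the 75th. Only 142 genes reached 1000 TPM and 1675 reached 100 TPM. Of the 20 features highest in CPM, 11 were also among the 20 highest in TPM. Ranking per length brought up short mRNAs, among them RpL41 with 11312 TPM ± 631 and RpS27A, and moved Vm34Ca, which codes for a vitelline membrane protein, to the second place among features of known length with 17264 TPM ± 3306.

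By class, protein-coding genes held 91.3% ± 0.881 of the counts, and 6827 of 13648, or 50%, were detected. Of 2062 noncoding RNA genes 61 were detected, and of 312 tRNA genes none had 10 counts in all 3 libraries. The chromosome arms 2L, 2R, 3L and X held between 16.3% and 17.9% of the counts each, and 3R held 21.3%. Chromosome 4, with 108 features, held 1.42% ± 0.05, and 57 of its features were detected. None of the 42 features of the Y chromosome was detected and 40 were at 0 in all 3 libraries.

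The markers fixed for the tissue were present at high levels, as the label of the samples has it. The posterior determinant osk (chromosome 3R, 8935126 to 8938395, plus strand) had 18540, 19227 and 20297 counts, or 1035 TPM ± 38.3, higher than 98.0% of detected genes. However, 84.1% of its exon length is shared with other annotated genes, 78.5% on the same strand, and the counting rule for shared bases is not stated. Counts of nanos, the translational repressor of the posterior pole and of germline stem cells, were 6648, 6868 and 4745, or 398 TPM ± 78.2. Among the follicle cell markers, the vitelline membrane gene Vm26Aa (chromosome 2L, 5959596 to 5960340) had 35156, 44830 and 45632 counts. The yolk protein gene Yp1 (chromosome X, 10053811 to 10055498) had 12118, 21169 and 25008 counts, with 54.3% of its exon length overlapping a gene of the other strand. The remaining marker, vas, was not analysed here. In bulk tissue, fewer cells of a type and less RNA per cell cannot be told apart, which holds for every gene group below.

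mRNAs that set the axes of the oocyte and embryo were nearly all detected. Of 22 genes, 21 were detected, where 50% of all protein-coding genes were, and 18 were above the median of detected genes. The same 50% stands beside the detected count of each list below. By definition, 50% of detected genes lie above their median. The list held 0.844%, 0.898% and 0.899% of the counts in replicates 1 to 3. After osk came exu, which is needed to localize bicoid mRNA, with 480 TPM ± 85.9, then sqd, an hnRNP of gurken localization, with 401 ± 58.5, nanos as given above, and swa, also of the bicoid pathway, with 344 ± 38.1. The translational repressor bru1 was at 323 TPM ± 15.8 and gcl, a gene of germ cell formation, at 257 ± 56.2. Lower members of the list included the genes bcd and grk, and also egl at 68.7 TPM, tud at 65.6, spir at 46.3 and capu at 18.2. The anterior morphogen bcd was at 66.8 TPM ± 21.5, and grk, the TGF-alpha ligand that signals from the oocyte to the follicle cells, was at 26.5 ± 5.49. Transcripts of cup, a partner of the cap-binding protein, were listed at 0 in all 9 libraries. All of its exon length lies within another gene annotated on the same strand, so its zero cannot be read as absence.

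Genes of germline stem cells and dividing cysts spanned a wide range. Of 18 genes analysed 17 were detected, against 50% of all protein-coding genes. Of these, 9 were above the median of detected genes, near an even split. dhd, a thioredoxin of the female germline that acts on sperm chromatin at fertilization, exceeded the others by more than 10 times, with 59375, 60120 and 31856 counts and 8120 TPM ± 2638. It is also a member of the maternal list below, so its level cannot be read as that of stem cells or cysts. It was followed by the ovarian tumor gene otu at 485 TPM ± 52.9, nanos as given above, pgc, which represses transcription in primordial germ cells, at 380 ± 62.9, and zpg, a germline gap junction protein, at 337 ± 64.1. The differentiation genes bam, bgcn and Rbfox1 were present at lower levels. The differentiation factor bam had 601, 609 and 635 counts, a level of 48.5 TPM ± 1.45, close to the median, and was among the steadiest of the list. Its partner bgcn had 19, 13 and 38 counts, or under 1 TPM. Rbfox1, an RNA-binding protein of cyst differentiation, was at 12.9 TPM.

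RpS19b, a ribosomal protein paralog expressed in early germ cells, had no count in the input libraries, although none of its exon length overlaps another gene. By counting error alone, a count of 0 allows up to 0.241 CPM in replicate 3, and low counts were uneven beyond that error. It had 14, 39 and 27 counts in the anti-FLAG libraries and none with IgG. Its paralog RpS19a was at 1949 TPM ± 92.1. The pair RpS5a and RpS5b, in which RpS5b is the germline paralog, was different, with 732 TPM ± 200 for RpS5a and 1362 ± 316 for RpS5b. Paralogs can share reads, and how the counting treated such reads is not stated.

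**Figure D2:**
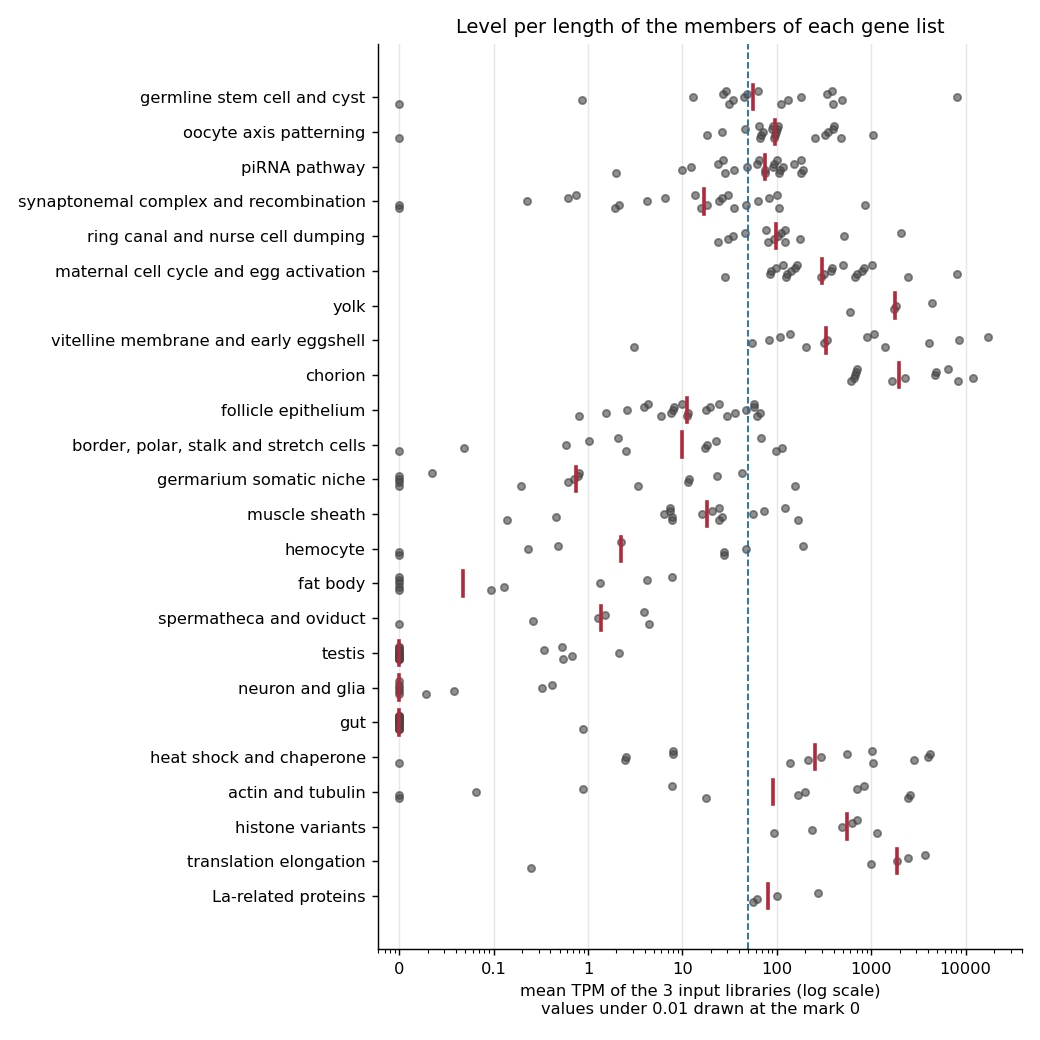
Mean TPM of every analysed member of the 24 gene lists, with 1 point per gene, the median of each list as a red bar and the median of all detected genes (49.9 TPM) as a blue dashed line on a log axis. The medians of the yolk, eggshell and maternal lists lie to the right of the dashed line, and the members of the gut, testis and neuron lists lie at the mark for 0 or near it.

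Maternal cell cycle and egg activation genes were mostly high but spanned a wide range, from grau at 28.1 TPM to dhd at 8120. All 22 were detected, 21 above the median of detected genes, with a median of 304 TPM. The cyclins led after dhd, with CycB (chromosome 2R, 22803521 to 22806948) at 2482 TPM ± 528 and CycA at 1019 ± 135. alphaTub67C, the maternal alpha-tubulin, was at 832 TPM ± 66.5. The gene gnu, a component of the PNG kinase that starts the first embryonic cycles, was at 791 TPM ± 222. The embryonic linker histone BigH1 was at 705 TPM ± 126 and smg, which removes maternal mRNA in the embryo, at 671 ± 156.

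This group varied with the library. It held 1.97%, 1.85% and 1.33% of the counts in replicates 1 to 3. Replicate 3 was the lowest library for 19 of its 22 genes, where it was lowest for 49.4% of all detected features. Under trimmed mean (TMM) scaling, chosen after the values were seen, the counts were 17 of 22 against 39.4%. CycB had 4429, 4199 and 3018 CPM and dhd 4747, 4625 and 2555 CPM. Without replicate 3 the share of the group was 1.91%. The 6 genes listed as histone variants, which were not chosen as specific to the germline, were also lowest in replicate 3 without exception. They include His2Av, the variant of histone H2A, with 757, 810 and 629 CPM, and the centromeric histone cid with 60.7, 55.1 and 28.4 CPM.

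Genes of the piRNA pathway, which silences transposons in the germline, were all detected and stood at moderate levels. The 22 genes had a median of 74.5 TPM and together held 0.264% ± 0.00589 of the counts, the steadiest share among the germline lists relative to its mean. The nuclear Argonaute piwi was the highest at 188 TPM ± 7.92, followed by del, a factor of piRNA cluster transcription, at 181 ± 8.64 and squ at 180 ± 5.84. The cytoplasmic Argonautes AGO3 and aub were at 154 TPM ± 15.5 and 101 ± 5.3. Replicate 3 was the highest library for 12 of the 22 genes, against 27.3% of all detected features. It was the lowest for 7, against 49.4%. Under TMM scaling it was the highest for 14, against 36.9%. Some of the genes lowest in replicate 3 were uneven. krimp, a Tudor protein of the nuage, had 192, 145 and 73.2 CPM, zuc, a nuclease of piRNA biogenesis, had 25.3, 15.2 and 8.90 CPM, and cuff, a factor of piRNA cluster transcripts, had 12.4, 7.38 and 4.65 CPM.

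Genes of meiotic recombination were the lowest germline group. Of 22 analysed, 17 were detected and 5 were above the median of detected genes, and the median of the list was 17.0 TPM. Those with roles in late meiosis were the most abundant, headed by mtrm, an inhibitor of Polo kinase that holds the oocyte in prophase arrest, with 6754, 7381 and 4170 counts and 858 TPM ± 240. The kinesins ncd and sub were at 105 TPM ± 31.9 and 101 ± 24.2. Components of the synaptonemal complex, which forms in the germarium, were lower, with c(3)G at 62.8 TPM ± 8.58 and c(2)M at 30.7 ± 5.5. The cohesion gene ord had 13, 0 and 4 counts, and spn-D, of recombinational repair, had 124, 183 and 10. cona, of the synaptonemal complex, and mus312, of crossover formation, were at 0 in all 3 libraries. All exon length of mus312 is shared with another gene of its strand, while 5.48% of that of cona overlaps any gene.

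Genes of ring canals and of the transfer of nurse cell cytoplasm were all detected. The 14 genes had a median of 97.8 TPM and took 0.354% ± 0.0089 of the counts. The actin-binding genes tsr, the fly cofilin, and chic, the fly profilin, stood above the rest with 2089 TPM ± 118 and 519 ± 40.9. The structural ring canal genes hts, kel and cher, which code for adducin, Kelch and filamin, were at 34.6 TPM ± 2.42, 30.5 ± 4.27 and 24.0 ± 5.9. Among them kel had 1206, 962 and 1088 counts and cher had 1618, 1080 and 1707, so counting error was small. The spread among libraries was larger than that error. The coefficient of variation of CPM was 13.1% for kel and 5.98% for hts, where counting alone would give 3.04% and 1.96%. Their TPM also depends on the union of annotated exons.

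Eggshell and yolk genes, nearly all of them follicle cell products, were among the most abundant mRNAs of the ovary. The chorion, vitelline membrane and yolk lists, with 30 genes, were detected in full. Only 1 of the 30 was below the median of detected genes. The 12 chorion genes took 2.08%, 1.68% and 2.04% of the counts in replicates 1 to 3 and had a median of 1969 TPM. The 95% Wilson interval of the share in replicate 1, from 2.07% to 2.09%, covers counting error only and was far narrower than the spread of the libraries.

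Yolk genes had a median of 1796 TPM. The yolk protein genes Yp2, Yp1 and Yp3 were at 4442 TPM ± 1060, 1842 ± 598 and 1749 ± 191, and the yolk receptor of the oocyte, yl, at 589 ± 66.4. The yolk protein genes were lowest in replicate 1. Yp1 had 969, 1628 and 2006 CPM and Yp2 had 2685, 3880 and 4570 CPM, while yl, which is expressed in the germline, had 2100, 1701 and 1972 CPM.

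Vitelline membrane genes ranged from the second most abundant transcript of known length to one near the limit. Vm34Ca had 41862, 61015 and 63378 counts, Vm26Aa was at 8608 TPM ± 998.8, Vm26Ab at 4139 ± 1069 and Vm32E at 1406 ± 285. The eggshell organizer dec (defective chorion) was at 1082 TPM ± 293 and Vml at 898 ± 260. The perivitelline protease gene ndl, which starts dorsoventral signaling, was at 55.0 TPM ± 24.8. The lowest was tsl, made by a few follicle cells at the poles for terminal signaling, with 32, 36 and 55 counts and 3.05 TPM ± 0.887. Replicate 3 was the highest library for 13 of the 14 genes, against 27.3% of all detected features, and for 14 of 14 under TMM scaling, against 36.9%. The share of the list was 1.18%, 1.56% and 1.83%, and 1.37% without replicate 3.

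**Figure D3:**
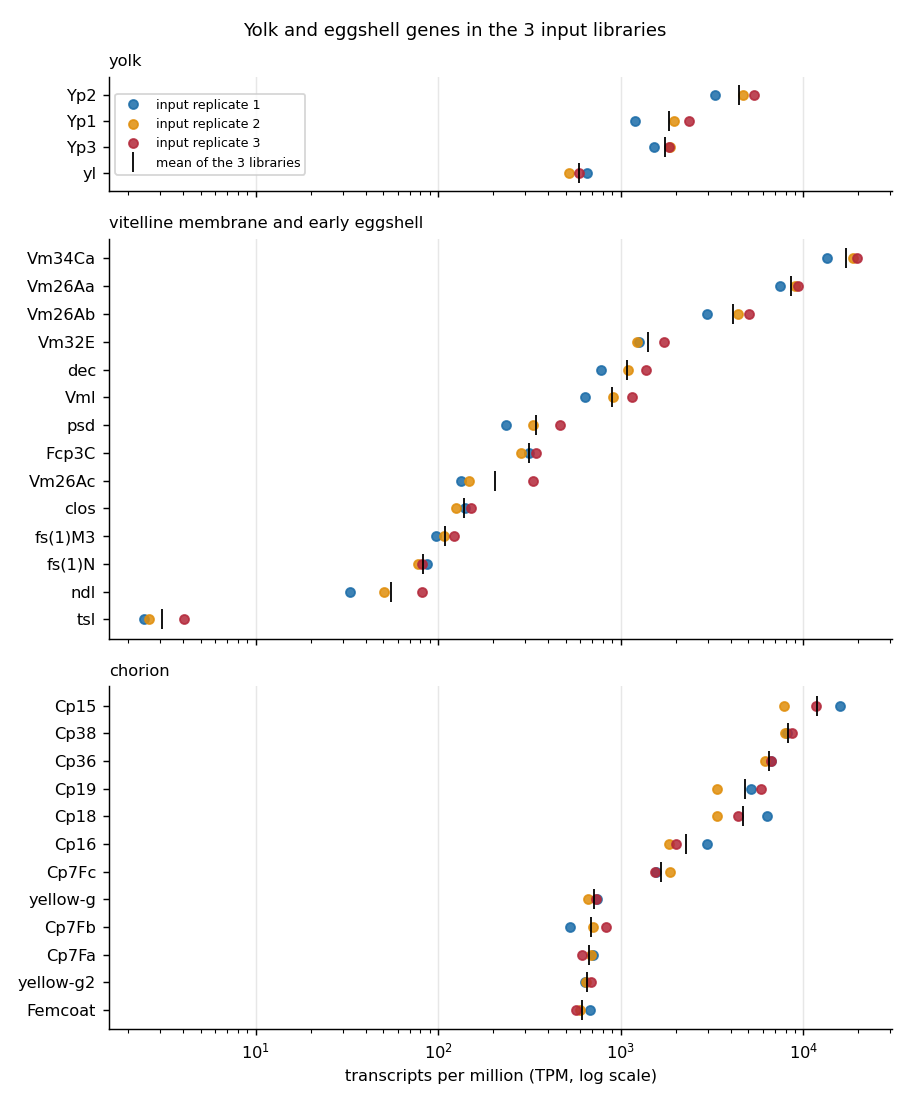
TPM of each yolk, vitelline membrane and chorion gene in the 3 input libraries on a log axis, with 1 point per library and the mean as a black bar, ordered by mean within each list. Most vitelline membrane genes have replicate 3 at the right, while Cp15, Cp16 and Cp18 have replicate 1 at the right and Cp15, Cp16, Cp18 and Cp19 have replicate 2 at the left.

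The chorion genes, which are amplified in follicle cells at their loci on X and 3L, differed in order among libraries by locus. Cp15 (chromosome 3L, 8728481 to 8729066) had 4162, 2064 and 3183 CPM, and Cp18, Cp19 and Cp16 of the same locus were also lowest in replicate 2. Summed over the 4 genes between 8726791 and 8732599 on 3L, the values were 8732, 4802 and 7261 CPM. Summed over the 5 genes between 8470888 and 8483311 on X, among them Cp36 and Cp38, they were 10816, 10849 and 11871 CPM. The X sum thus varied little and the 3L sum was low in replicate 2. Within the X locus Cp7Fb varied more, with 558, 754 and 917 CPM. The same order at 3L recurred in the IgG libraries of the same numbers, with 8041, 5012 and 6868 CPM, and replicate 2 was also the lowest of the anti-FLAG libraries, with 1915, 1545 and 2906 CPM. The loci were chosen after their values were seen, and the cause of the difference was not tested.

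Regulators and adhesion genes of the follicle epithelium were detected at far lower levels than its products. Of 22 genes, 21 were detected, with a median of 11.3 TPM, and 4 were above the median of detected genes. The transcription factors ttk and bun were at 66.8 TPM ± 5.99 and 57.7 ± 2.53, and the adhesion genes ed and shg, the fly E-cadherin, at 62.4 ± 10.4 and 47.0 ± 4.86. tj, a Maf factor of somatic gonad cells, had 702, 1715 and 1486 counts and was lower in replicate 1 than in the other libraries. Fas3, an adhesion gene that is higher in early follicle and polar cells, had 274, 386 and 779 counts and Fas2 had 285, 311 and 810, both highest in replicate 3.

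Some genes of small follicle cell populations reached the limit of these libraries, while others lay well above it. Of 12 genes of border, polar, stalk and stretch cells 9 were detected, with Past1 the highest at 114 TPM ± 15.6. The JAK/STAT genes Stat92E, its transcription factor, and dome, its receptor, were well above the ligands with 98.9 TPM ± 9.62 and 68.6 ± 11.9. The genes sim, jing and neur were between 17.4 and 22.9 TPM. The ligand genes upd1 and upd3 had at most 3 and 29 counts in a library, and upd2 was at 0 in all 3. The border cell factor slbo had 18, 29 and 90 counts. Of 16 genes of the somatic niche of the germarium, 8 were detected, the same 50% as among all protein-coding genes. Of these 1, fax, was above the median of detected genes, at 157 TPM ± 8.39. After it came LamC at 42.5 TPM ± 3.81 and zfh1 at 23.2 ± 4.51. The ligand hh, a marker of the terminal filament and cap cells, had 1 count in all, and the transcription factor genes en, inv, Lmx1a and Sox100B were at 0 in all 3 libraries.

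Of the cell types that can remain with a dissected ovary, muscle had the largest part of its genes detected. All 16 muscle sheath genes analysed had counts and 15 were detected, with a median of 18.4 TPM and a share of 0.0945%, 0.119% and 0.121%. Much of that share came from Tm1, a tropomyosin gene that is also used outside muscle, with 544.5, 702 and 582 CPM. Act57B, a muscle actin, was at 166 TPM ± 51.0 and Mlc2, the muscle myosin light chain, at 56.0 ± 12.7. The myosin heavy chain Mhc had 246, 397 and 659 counts. Replicate 3 was the highest library for 11 of the 15 detected genes, against 27.3% of all detected features, and for 12 under TMM scaling, against 36.9%. Blood cell genes were mixed. The list holds genes with roles in follicle cells as well, such as the basement membrane collagens Col4a1 and vkg, with 1190, 1682 and 2894 and 719, 1056 and 1728 counts, and crq was at 188 TPM ± 11.3. Of the 9 genes 6 were detected. The hemocyte markers Hml, NimC1 and He were at 28, 41 and 43 counts for Hml and at 0 in all 3 libraries for the others. Higher members were Pxn, with 68, 51 and 141 counts, and srp, with 1081, 1014 and 1068.

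Few fat body, gut, neuron and testis genes were detected, and those at low levels. Of 10 fat body genes 3 were detected, 5 were at 0 in all 3 libraries (Lsp1alpha, Lsp1gamma, Fbp1, Fbp2 and to), and the list took 0.00508%, 0.00442% and 0.00192% of the counts. The storage protein Lsp2 was the highest per length, with 217, 128 and 24 counts. Of 16 gut genes, 15 were at 0 and Jon65Aiv, a digestive protease, had 16 counts in replicate 2 alone. None of the 9 neuron and glia genes analysed was detected and elav had 34, 5 and 29 counts. Of 18 testis genes 13 were at 0 and 1, bol, a meiotic translation regulator, was detected with 110, 135 and 99 counts. Send1, a protease of the spermatheca, had 67 counts in replicate 3 and none in the other libraries. Of the 6 spermatheca and oviduct genes 3 were detected, the same 50% as among all protein-coding genes, with Oamb, an octopamine receptor, the highest at 4.47 TPM ± 1.33.

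Constitutive chaperones, cytoskeletal genes and elongation factors included further abundant mRNAs. Hsp26, a small heat shock protein made in the germline without stress, was at 4167 TPM ± 1327, Hsc70-4 at 4020 ± 294 and Hsp83 at 2857 ± 334. Of the tubulins, alphaTub84B, which is found in most cells, had 2603 TPM ± 252, above the maternal alphaTub67C, and the testis tubulins alphaTub85E and betaTub85D were at 0 in all 3 libraries. Hsp22 was also at 0, with all of its exon length shared with another gene of its strand. The elongation factor subunits eEF1gamma and eEF1beta were at 2464 TPM ± 81.6 and 1890 ± 116. The isoform of differentiated tissues, eEF1alpha2, had 13 counts, all in replicate 3. Only 5 of the 7 listed elongation genes were analysed, so the level of eEF1alpha as a whole cannot be read from this isoform.

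Heat shock genes were mostly highest in replicate 3. It was the highest library for 10 of 11 detected genes, against 27.3% of all detected features, and also for 10 under TMM scaling, against 36.9%. Constitutive members differed mildly, with 1846, 1660 and 3019 CPM for Hsp26. The stress-inducible members, which are close to silent in unstressed cells, differed strongly. Hsp68 (chromosome 3R, 24055080 to 24057310) had 40.9, 3.54 and 439 CPM. The Hsp70 copies Hsp70Aa and Hsp70Ba, which are nearly identical in sequence so that reads may be split among them, had 58, 12 and 300 and 1, 1 and 359 counts.

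Among the 3890 features with a mean of at least 50 CPM, most varied little among the libraries. The median coefficient of variation was 13.4%, where counting alone would give 2.56%. The highest library was at least 2 times the lowest for 124 features, or 3.19%, and the number was 11 when replicate 3 was left out. The value was 89 without replicate 2 and 61 without replicate 1. In 63 of the 124 features replicate 3 lay apart on the low side and in 29 on the high side.

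GstD1 (chromosome 3R, 12367817 to 12369268), a glutathione S-transferase of oxidative and chemical defense, was one of the most unequal features, high in replicate 3 with 24.2, 24.3 and 793 CPM. CG44085 had 7.92, 18.5 and 216 CPM. LanB2, a laminin chain of the basement membrane, had 27.3, 46.2 and 83.3 CPM, spd-2, a centrosome gene, had 131, 82.2 and 247 CPM, and Hsp23 had 91.2, 80.5 and 232 CPM. On the low side, zyd (chromosome X, 23022898 to 23035550), a calcium exchanger, had 126, 114 and 4.41 CPM. Drep1, a gene of the DNA fragmentation factor family (chromosome 2R, 12044612 to 12050172), had 161, 173 and 12.03 CPM, and CG12112 had 95.6, 87.8 and 24.5 CPM. In replicates 1 and 2 each of these genes was close to equal, except CG44085, LanB2 and spd-2. The mitochondrial gene mt:ATPase6 was a different case, lowest in replicate 2 with 1011, 319 and 596 CPM.

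**Figure D4:**
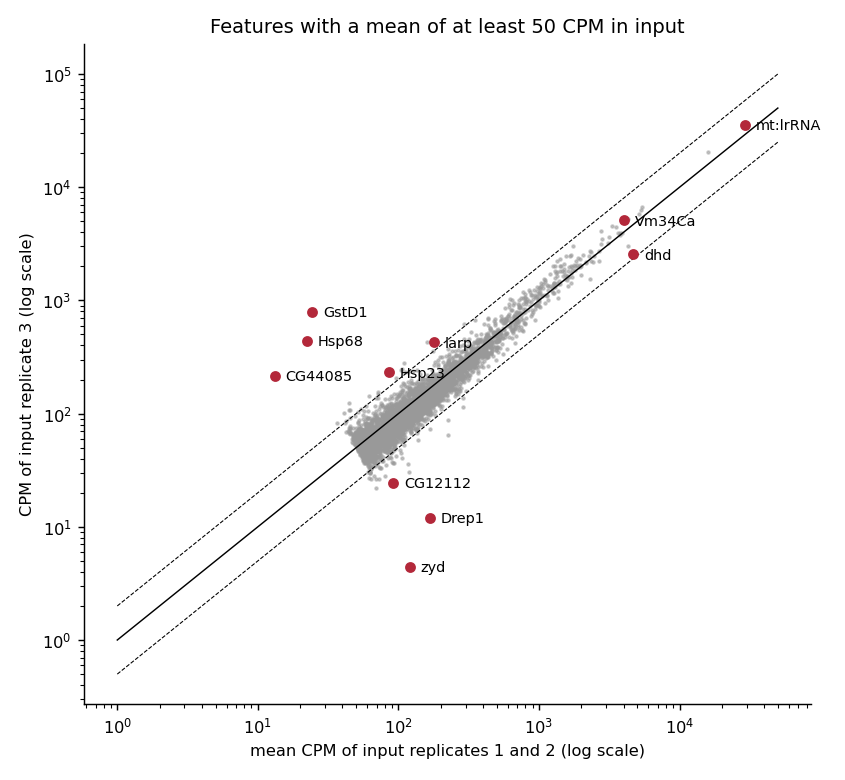
CPM of input replicate 3 against the mean CPM of input replicates 1 and 2 on log axes, with 1 gray point for each of the 3890 features with a mean of at least 50 CPM and 11 genes marked in red. The solid line marks equal values and the dashed lines a ratio of 2, and GstD1, Hsp68 and CG44085 lie far above and zyd, Drep1 and CG12112 far below them.

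Part of these differences recurred in the other libraries that carry the number 3. Of the 29 features high in input replicate 3, replicate 3 was also the highest of the IgG libraries for 28 and of the anti-FLAG libraries for 26, where this held for 34.3% and 61.8% of all 3890 features. Of the 63 low features it was the lowest for 39 and 25, against 29.4% and 15.04%. GstD1 had 37.8, 33.5 and 749 CPM with IgG and 10.8, 12.2 and 411 CPM with anti-FLAG. zyd had 117, 87.4 and 0 CPM with IgG and 51.2, 42.1 and 0.1445 CPM with anti-FLAG. Recurrence was thus near complete for the high features with IgG. With anti-FLAG it was also frequent, but there replicate 3 was the highest library for 61.8% of all features. For the low features recurrence was partial and above the share of all features in both fractions. The smaller number with anti-FLAG stood beside a smaller share of all features. What set replicate 3 apart was not tested.

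**Figure D5:**
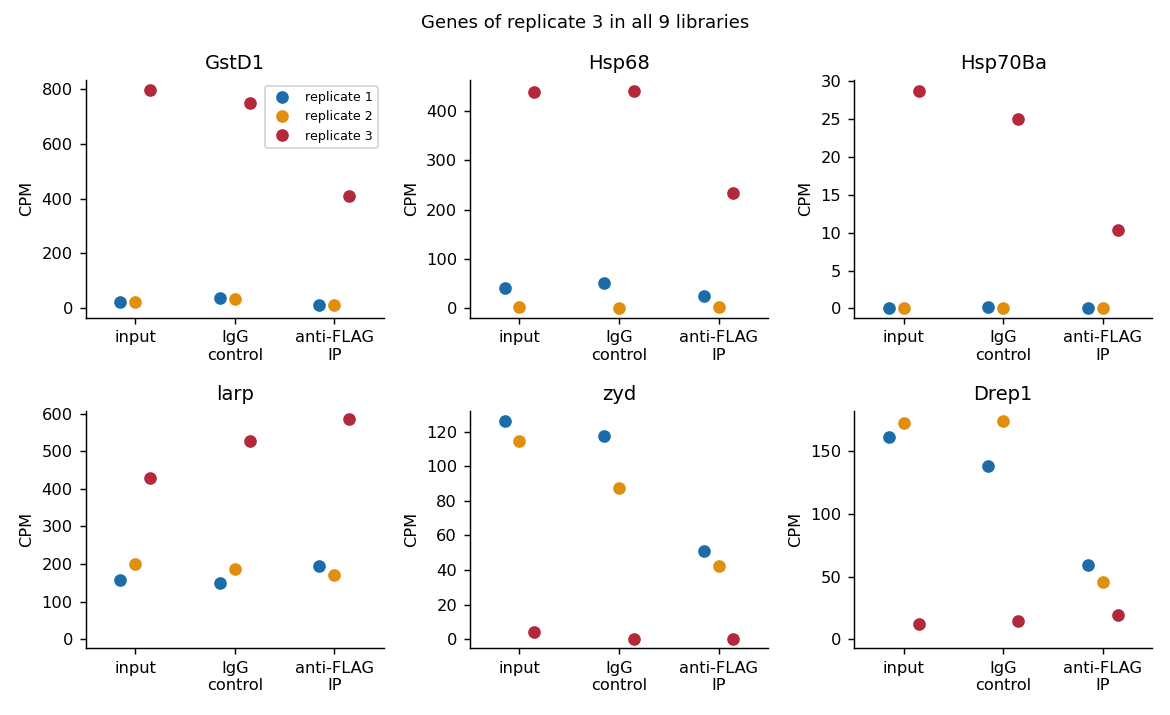
CPM of GstD1, Hsp68, Hsp70Ba, larp, zyd and Drep1 in all 9 libraries, with 1 point per library, colored by replicate number, and linear axes that differ between panels. In each fraction the point of replicate 3 lies above the others for GstD1, Hsp68, Hsp70Ba and larp and below them for zyd and Drep1.

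The gene of the tagged protein followed the same split. Counts of larp (chromosome 3R, 28318162 to 28336440) were 1971, 2616 and 5333, or 158, 201 and 428 CPM, with 55.4 TPM ± 29.5, near the median of detected genes. It was at 151, 188 and 529 CPM with IgG and 194, 170 and 587 CPM with anti-FLAG. The counts do not separate the tagged from an untagged transcript. Among the other La-related genes, La was at 272 TPM ± 29.8, Larp7 at 100.4 ± 12.8 and Larp4B at 61.9 ± 7.77, and for these 3 genes replicate 3 was the lowest library. The level of larp in ovaries of this genotype was therefore measured with a spread that depends on replicate 3.

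Features without counts in input were mostly without counts anywhere. Of 7715, 6854 were at 0 in all 9 libraries and 703 had more than 3 counts in at least 1 of the other 6. Protein-coding features at 0 in input numbered 5011. Of these, 359 share at least 99% of their exon length with other genes of either strand, and 14 of the detected protein-coding features do. How many share it on their own strand was not counted. For those 359 a count of 0 may not mean that the transcript is missing. Transcripts known to be needed in the ovary, such as cup, fall in this class, whereas armi, a piRNA helicase with 99.6% of its exon length shared, had 2261, 2526 and 2564 counts.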

How the data were processed

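Poly(A)-selected, strand-specific libraries were prepared after TRIzol extraction, DNase treatment and 13 min of fragmentation. The deposited files hold raw read counts that the authors assigned to genes, 1 whole number per FlyBase identifier and library, without normalization. The submitters' processing notes name HISAT2 2.1.0, featureCounts 1.4.6 and dm6. The strand setting and annotation release are not given in the sources used here.

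CPM was computed from the total of all features, and TPM from the union of annotated exons (BDGP6.54, Ensembl release 115, dm6 coordinates). Identifiers gave a symbol and a length for 16647 of 17024 features. The other 377 held 5.13% to 5.68% of input counts and stayed in CPM totals but not in TPM. Genes of the lists that had no row under their current identifier were not analysed here, and neither were promoter motifs. Detection required 10 counts in each library. Levels are means ± SD over 3 libraries. Wilson intervals and the floor of 3 counts cover counting error only, as PCR copies are not independent molecules. Analyses used Python 3.11.15, pandas 2.3.3 and, for TMM factors, edgeR 4.0.16 in R 4.3.3. The variation measures were checked on simulated data.

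The members and the 24 lists were chosen with earlier results of these data known. Genes named were the 20 highest in CPM, the 10 highest in TPM, the markers, up to 6 members of each list by TPM with members at 0 or needed for the order of levels, the 10 most unequal genes on each side among those of at least 50 CPM, and larp. ord, Rbfox1, bgcn, tsl, hh, spn-D, RpS5a, RpS5b, RpS19a, the Hsp70 copies and Send1 lie outside the highest members and were chosen after their values were seen, as were other single genes beyond the 6 of a list. Alternatives were TMM scaling, TPM, totals without mitochondrial or unnamed features, other detection limits, and leaving out each library.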

Additional observations from a re-analysis of the deposited data

Results flagged for a closer look

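The first feature of each list has an identifier of 6 digits and no symbol, and it stayed in the library totals. It had 382, 69.2 and 65.0 CPM in input replicates 1 to 3, and 78907.4, 23953 and 5485 CPM in the IgG libraries, so that in IgG replicate 1 it took 7.89% of the counts. The anti-FLAG libraries had 3136, 3230 and 1603 CPM. It was above input in each of the 6 immunoprecipitated libraries, and the cause was not tested.

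Of the features at 0 in all input libraries, 6 had more than 3 counts in all 3 anti-FLAG libraries. They are loh, CG13405, Pde6, RpS19b, CG31300 and CG32713, with between 4 and 39 counts per anti-FLAG library, and loh had 42 counts in IgG replicate 3 as well. Conversely 3 such features, CG17239, CG32834 and NimC1, had more than 3 counts in all 3 IgG libraries, with 225, 58 and 98 counts for CG32834.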

How the results depend on the processing

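No paired analysis was possible because no groups were compared. Detected features numbered 7080, between 7215 and 7329 with any single library left out, 7390 with a minimum of 1 count and 7651 with a mean of at least 1 CPM. Features at 0 numbered 7715, between 8063 and 8172 with a library left out, and 7856 with fewer than 3 counts. Measured per length (TPM), the share of the 10 most abundant features was 13.4% and of the first 100 38.9%, the axis patterning list took 0.427%, the vitelline membrane list 3.46% and the chorion list 4.34%, and 11 of the 20 most abundant features were kept. Without mitochondrially encoded genes the shares of the 10 and 100 most abundant features were 6.12% and 23.5%, and the axis patterning list took 0.921%, or 0.930% without features that have no symbol. Leaving out a library moved the share of the first 10 from 8.22% to 9.38% and of the first 100 from 24.9% to 27.3%, and kept 19 or 20 of the 20 features. TMM scaling moved no list share by more than 1 SD of the replicates. The features that differed at least 2 times among libraries numbered 124, 105 with TMM scaling, 645 with a mean of at least 10 CPM, and between 11 (without replicate 3) and 89 with a library left out. Leaving out a library was, for these features and for the first 20, an alternative chosen after seeing the data. By counting error alone, depth limits statements on genes below about 0.241 CPM. The uneven low counts extend this to higher levels, as 1305 features at 0 in some input library had at least 10 counts in another.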
